A study of Mus musculus with 2 samples.

Results

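The Rab GTPases are the branch of the Ras superfamily of small GTP-binding proteins that directs membrane traffic. They were taken as all genes whose symbol is Rab followed by a number and at most 1 letter, with symbols from the annotation carried in the deposited transcript table. The rule found 59 genes among 55536 annotated genes. All 59 are protein-coding, of 22028 protein-coding genes in all, and 4 of them lie on the X chromosome (Rab9, Rab9b, Rab33a and Rab39b). The rule leaves out Rab-like genes, antisense genes and pseudogenes with a longer symbol.

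Total RNA was sequenced from hippocampal tissue, which the labels describe as a layer of the hippocampus, of male B6CASTF1/J mice at 25 days of age. B6CASTF1/J is a hybrid between 2 inbred strains, and the deposited values do not separate the parental alleles. There was 1 group of 2 biological replicates, each made from 300 ng of RNA with synthetic ERCC spike-in RNAs added, and no treatment, genotype or time point was compared. The replicates carry separate tissue identifiers but 1 donor identifier. The labels thus do not show that they are separate animals, and part or all of their spread may be technical. With 1 group there was nothing to test, and every value below is a description of these 2 libraries.

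A Rab protein switches between a GDP-bound and a GTP-bound form. An exchange factor loads it with GTP on a particular membrane, where the active form recruits effectors such as motors, tethers and scaffolds, and a GTPase-activating protein returns it to the GDP-bound form. A GDP dissociation inhibitor then lifts the inactive Rab off the membrane. The Rab is held on the membrane by lipid (geranylgeranyl) groups attached to cysteines at the very end of the protein. In neurons, different Rabs mark synaptic vesicles, recycling endosomes of dendrites, signalling endosomes of axons and the Golgi apparatus.

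The coding sequences show a switch region that most of these genes share. The G3 box, a stretch that contacts the nucleotide and belongs to the switch, was located in the principal coding sequence of each gene. In Rab3a it lies at bases 226 to 246 of the coding sequence, counted from the first base of the start codon. A set of 49 of the 59 genes encoded the same 7 residues there as Rab3a, yet they did so with 39 distinct sequences of 21 bases that differed from that of Rab3a at up to 5 positions. Capitals mark the bases that differ from Rab3a in 5 genes with the same residues, which act at the Golgi, recycling endosome, late endosome, early endosome and plasma membrane.
Rab3a: tgggacacagcagggcaagag
Rab6b: tgggacacTgcTgggcaagag
Rab11a: tgggacacagcagggcaGgag
Rab7: tgggacacagcCggTcaagaA
Rab5a: tgggaTacagcTggTcaagaA
Rab8b: tgggacacGgcGggCcaGgaA
The 10 genes that encoded other residues in this box were Rab7b, Rab20, Rab24, Rab25, Rab28, Rab29, Rab32, Rab38, Rab40b and Rab40c. Of these 10, 4 reached 10 transcripts-per-million (TPM) in the tissue, namely Rab24, Rab28, Rab40b and Rab40c. That level was reached by 44 of all 59 Rab genes and by 36.8% of protein-coding genes. The 2 most and the least expressed of the 10 are shown here, again with capitals for bases that differ from Rab3a.
Rab24: tgggacacagcaggTTCCgag
Rab28: tgggaTaTagGagggcaGACA
Rab25: tgggacacGgcCggCcTGgag

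The end of the coding sequence carries the codons for the lipid-bearing cysteines. In the last 5 codons, all 59 genes had at least 1 cysteine codon (TGT or TGC), 50 had 2 of them and 9 had 1. The 2 cysteine codons were separated by 1 other codon at the end of 20 genes, were the last 2 codons of 15 genes, and were adjacent but followed by further codons in 15 genes. The final 15 coding bases are given for 1 gene of each kind, with cysteine codons in capitals.
Rab3a: caggatTGTgccTGC
Rab2a: gggggaggcTGCTGT
Rab5a: cagTGTTGTagtaac
Rab8a: cggTGCagtctcctg
Close relatives were still far apart as sequences. Over 27 pairs of paralogues (genes copied from a common ancestor), aligned coding sequences were 62.7% to 78.5% identical, with a median of 74.4%. The longest run of identical bases in any pair was 38, between Rab1a and Rab1b. The posterior SD of the expected count, a measure of how far reads could be moved between similar genes, was 0 in both libraries for 48 of the 59 genes. Of the 46 Rab genes that averaged at least 100 expected counts, only Rab43 had a posterior SD above 1% of its count, at 6.04%. Rab43 shares 4164 of its 5526 exonic bases with Gm45140 on the same strand, so the level of Rab43 is uncertain.

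Levels are TPM from the gene table, a length-corrected unit that allows genes to be compared within a library. Depth was 30635891 expected counts over annotated genes for replicate 1 and 35713471 for replicate 2. A count of 0 allows up to 3 counts in a library. As a check of the tissue, all 9 listed markers of hippocampal neurons were at 10 TPM or more, as were 4 of 4 astrocyte, 4 of 4 oligodendrocyte, 3 of 4 microglial and 3 of 4 endothelial markers. Of 4 markers of the choroid plexus, a tissue that lies beside the hippocampus, 2 were under 1 TPM and only Ttr was above 10. In bulk tissue, fewer cells of a type and less RNA per cell cannot be told apart.

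Most Rab genes were expressed. A mean of at least 1 TPM was reached by 50 of 59, where 58.9% of protein-coding genes reached it, and at least 10 TPM by 44 of 59, where 36.8% of protein-coding genes did. The median Rab gene was at 17.6 TPM in replicate 1 and 19.1 TPM in replicate 2, against 3.47 and 3.32 TPM for the median protein-coding gene. Together the 59 genes took 2496.7 TPM in replicate 1 and 2641.3 TPM in replicate 2 (mean 2569 ± 102, SD, n = 2). Their share of expected counts was 0.417% (95% Wilson interval 0.415 to 0.420) in replicate 1 and 0.443% (0.441 to 0.446) in replicate 2. These intervals cover counting error only and do not overlap. The 10 highest genes took 58.1% and 58.6% of all Rab TPM.

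**Figure D1:**
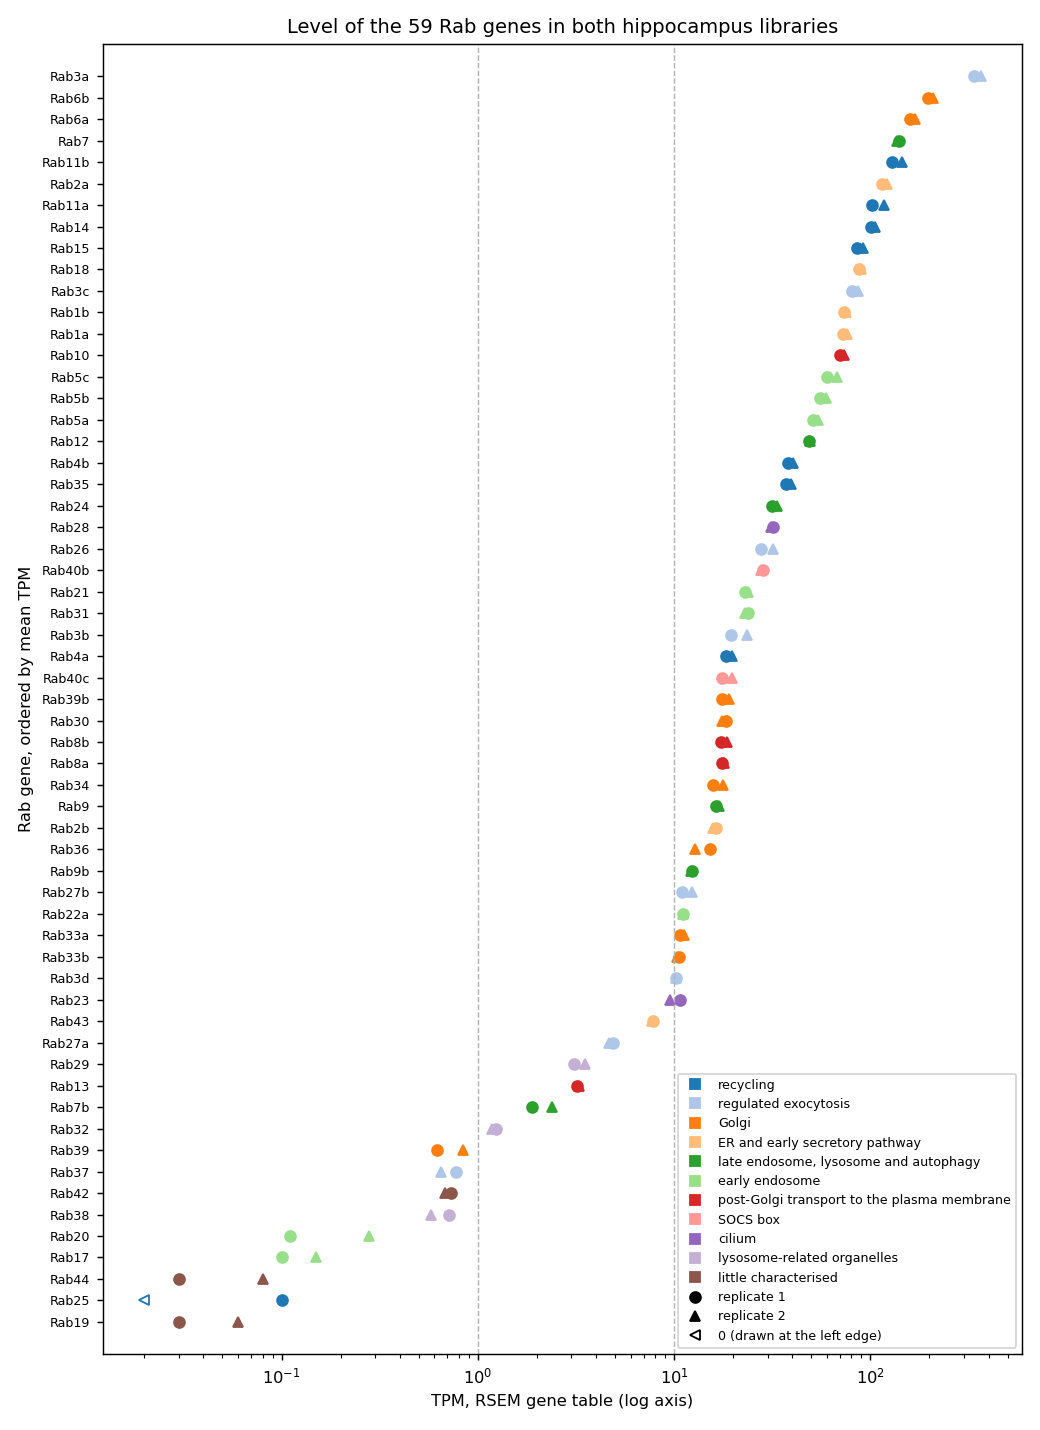
TPM of each of the 59 Rab genes on a log axis, ordered by mean and coloured by role, with a circle for replicate 1 and a triangle for replicate 2; dashed lines mark 1 and 10 TPM. Rab3a stands highest at 336 and 365 TPM, 9 genes lie under 1 TPM, and Rab25 is listed at 0 in replicate 2.

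Neighbours in this order were often not separable. Of 58 neighbouring pairs, 31 had overlapping values in the 2 libraries. The highest 3 ranks, Rab3a, Rab6b and Rab6a, did not overlap with each other or with Rab7 below them. Rab3a ranked 115 among all protein-coding genes, Rab6b 300 and Rab6a 431.

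Among the Rabs of regulated exocytosis, the synaptic vesicle protein Rab3a dominated. Rab3a was at 336 TPM in replicate 1 and 365 TPM in replicate 2, the highest level of any Rab gene in both libraries. Its relative Rab3c, also found on synaptic vesicles, was at 81.1 and 86.8 TPM. Rab3b was at 19.6 and 23.5 TPM, and Rab3d, best known from secretory granules of gland cells, was at 10.2 TPM in each library. The 4 Rab3 genes therefore fell in the order Rab3a, Rab3c, Rab3b and Rab3d in both libraries, without overlap. Together they took 447 and 485 TPM, or 17.9% and 18.4% of all Rab TPM. The granule and exosome Rabs of the Rab27 pair were far lower. Rab27b was at 10.9 and 12.4 TPM, above Rab27a at 4.86 and 4.68 TPM. Rab26, a synaptic vesicle Rab linked to autophagy, was at 27.7 and 31.7 TPM. Rab37, known from secretory granules, was at 0.77 and 0.65 TPM, the only one of these 8 genes under 1 TPM.

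The Golgi Rabs were led by the pair that runs retrograde transport through the Golgi apparatus. Rab6b, the form known to be enriched in brain, was at 198 TPM in replicate 1 and 208 TPM in replicate 2. The widely expressed Rab6a was at 159 and 169 TPM, below Rab6b in both libraries. Of the other Golgi genes, Rab30, Rab33a, Rab33b, Rab34, Rab36 and Rab39b lay above 10 TPM and at most at 19.1 TPM in both libraries. Rab39b, a neuronal X-linked Rab, was at 17.4 and 19.1 TPM, while its relative Rab39 was at 0.62 and 0.84 TPM. The autophagy-linked pair Rab33a (10.7 and 11.2 TPM) and Rab33b (10.6 and 10.4 TPM) lay within 1 TPM of each other.

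Rabs of the early secretory pathway carry cargo between the endoplasmic reticulum and the Golgi. Rab2a was the highest of the 6, at 114 and 121 TPM, while Rab2b was at 16.3 and 15.7 TPM. Rab1a and Rab1b drive the same step and stood level. Rab1b was at 73.6 and 74.8 TPM and Rab1a at 72.3 and 75.7 TPM, so the higher of the pair changed between libraries. Rab18, which acts at the endoplasmic reticulum and lipid droplets, was at 87.5 and 89.3 TPM. Rab43 was at 7.81 and 7.74 TPM, with the uncertainty given above.

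Recycling Rabs return receptors and membrane from endosomes to the cell surface and took the largest summed level of the 11 role lists, 511 TPM in replicate 1 and 558 TPM in replicate 2. The regulated exocytosis list followed at 491 and 535 TPM, and the ranges of these lists overlapped. Rab11b, a recycling endosome Rab known to be abundant in brain, was at 129 and 144 TPM, above Rab11a at 102 and 117 TPM in both libraries. This order is that of all transcripts together, and coding shares of the pair are given below. The epithelial relative of Rab11a and Rab11b, Rab25, had 2 counts in replicate 1 and 0 in replicate 2. Rab14 was at 100.2 and 106 TPM and the neuronal Rab15 at 85.6 and 91.5 TPM. Rab4b, of the fast recycling route, was at 38.2 and 40.5 TPM against 18.3 and 19.6 TPM for Rab4a. Rab35 was at 37.3 and 39.4 TPM. All but Rab25 of the 8 recycling genes were therefore above 10 TPM.

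The early endosome list held 2 very unequal sets. The 3 Rab5 genes, which control fusion of early endosomes, stood close together with Rab5c at 60.01 and 67.4 TPM, Rab5b at 55.2 and 59.1 TPM and Rab5a at 50.9 and 54.3 TPM. Rab5c was the highest of the 3 in both libraries. Rab21, an integrin-traffic Rab, was at 23.1 and 23.9 TPM, and of the related pair Rab31 and Rab22a, Rab31 was at 23.7 and 23.0 TPM and Rab22a at 11.1 and 11.2 TPM. The other set, Rab17 and Rab20, was near the detection limit. Rab17, an epithelial Rab, had 2 counts in each library, and Rab20 had 3 and 9 counts.

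On the degradative route, Rab7 takes late endosomes to the lysosome. Rab7 was at 139 and 136 TPM, whereas Rab7b was at 1.88 and 2.40 TPM. Rab12, a lysosomal Rab and a substrate of the kinase Lrrk2, was at 48.9 and 49.4 TPM, and Rab24, linked to autophagy, at 31.5 and 33.4 TPM. Rab24 shares 1258 of its 2015 exonic bases with Prelid1 on the opposite strand, which was at 59.4 and 67.3 TPM. How the counting used strand is not given in the sources used here. The posterior SD of the Rab24 count was 0, against 6.04% for Rab43. The effect of this overlap on the Rab24 level was not tested. Rab9 and Rab9b, which return receptors from late endosomes to the Golgi, were at 16.4 and 17.0 TPM and at 12.3 and 12.1 TPM.

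Among the 4 Rabs of post-Golgi transport to the plasma membrane, Rab10 was the highest at 69.97 and 73.67 TPM. Rab8a (17.6 and 18.0 TPM) and Rab8b (17.3 and 18.6 TPM) stood level, and the junction-associated Rab13 was at 3.19 and 3.28 TPM. The remaining lists were small. Rab40b and Rab40c, which carry a SOCS box and recruit a ubiquitin ligase, were at 28.5 and 27.8 TPM and at 17.5 and 19.7 TPM. Of the cilium-linked Rabs, Rab28 was at 32.1 and 31.1 TPM and Rab23, an inhibitor of hedgehog signalling, at 10.8 and 9.54 TPM. The Rabs of lysosome-related organelles such as melanosomes were all low. Rab29, also a partner of Lrrk2, was at 3.10 and 3.51 TPM, Rab32 at 1.24 and 1.18 TPM and Rab38 at 0.71 and 0.58 TPM. The 3 little characterised genes were all under 1 TPM.

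Under 1 TPM lay 9 genes in all: Rab17, Rab19, Rab20, Rab25, Rab37, Rab38, Rab39, Rab42 and Rab44. Rab39 had the most reads of them, with 37 counts in replicate 1 and 59 in replicate 2, and Rab37 had 35 and 39. Rab38 had 22 and 18 counts and Rab42 had 10 and 11. Rab44, which is known from immune cells and encodes a much longer protein than other Rabs, had 2 and 3 counts, and Rab19 had 1 and 2. At so few counts, Rab17, Rab19, Rab25 and Rab44 were not distinguishable from the limit that 0 counts allows. Rab39 and Rab32 bracket the threshold of 1 TPM, at means of 0.73 and 1.21 TPM.

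CpG dinucleotides around the start site, a feature of promoters of widely expressed genes, were more frequent in the Rab genes of at least 10 TPM than in those under 1 TPM, but did not follow the order of levels gene by gene. They were counted in the 300-base RefSeq windows of GRCm38.p6 as the letters CG, which read the same on both strands. Windows were found for 48 of the 59 genes. The median was 25 CpG in the 37 matched Rab genes of at least 10 TPM and 9 in the 6 matched genes under 1 TPM, and windows of protein-coding genes at these levels held 24 and 3. Rab6b had 42, Rab3a 22 and Rab17 5. The counts ranged from 7 to 45 in 37 Rab genes of at least 10 TPM and from 5 to 27 in 6 under 1 TPM. The Rab genes of at least 10 TPM thus had about as many as other genes of that level.

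Comparison within paralogue families showed where 1 copy dominated. In 8 of 16 families the highest gene exceeded the next by more than 2-fold in both libraries, and in 3 of them by more than 5-fold. Rab7 exceeded Rab7b by 74.0-fold in replicate 1 and 56.7-fold in replicate 2. Rab39b exceeded Rab39 by 28.1-fold and 22.7-fold, and Rab2a exceeded Rab2b by 7.01-fold and 7.70-fold. In the Rab3 family, the TPM of Rab3a was 4.15 and 4.20 times that of Rab3c. Smaller ratios, between 2 and 3 in both libraries, separated Rab29 from Rab32, Rab27b from Rab27a, Rab31 from Rab22a and Rab4b from Rab4a. By counts, which are not divided by length, these ratios were 1.63 for Rab29 over Rab32, 4.62 for Rab27b over Rab27a, 1.09 for Rab31 over Rab22a and 1.71 for Rab4b over Rab4a. With kallisto TPM, Rab31 over Rab22a was 1.77. The other families were more even, and 7 of the 16 stayed under 1.5-fold in both libraries, namely Rab1, Rab5, Rab6, Rab8, Rab9, Rab11 and Rab33. Rab8b exceeded Rab8a by 2.46-fold in counts, although their TPM was level. The leading gene by TPM was the same in both libraries for 14 of 16 families, the exceptions being Rab1 and Rab8.

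Gene length bears on these ratios. Rab3c had more reads than Rab3a, with 12308 and 15527 expected counts against 8934 and 11372, and its leading transcript is 8444 bases long against 1363 bases. Without division by length, the ratio of Rab3a to Rab3c was 0.729, so the order of these genes holds per length only. By counts another gene also led in the Rab1, Rab5, Rab9 and Rab33 families, and in replicate 2 in the Rab40 family, so that the leader was kept in 10 of 16 families. The kallisto table kept the leader in 14 of 16. The exceptions were Rab33, where kallisto gave a ratio of 0.956, and Rab6, where Rab6b was at 0.818 times the level of Rab6a.

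**Figure D2:**
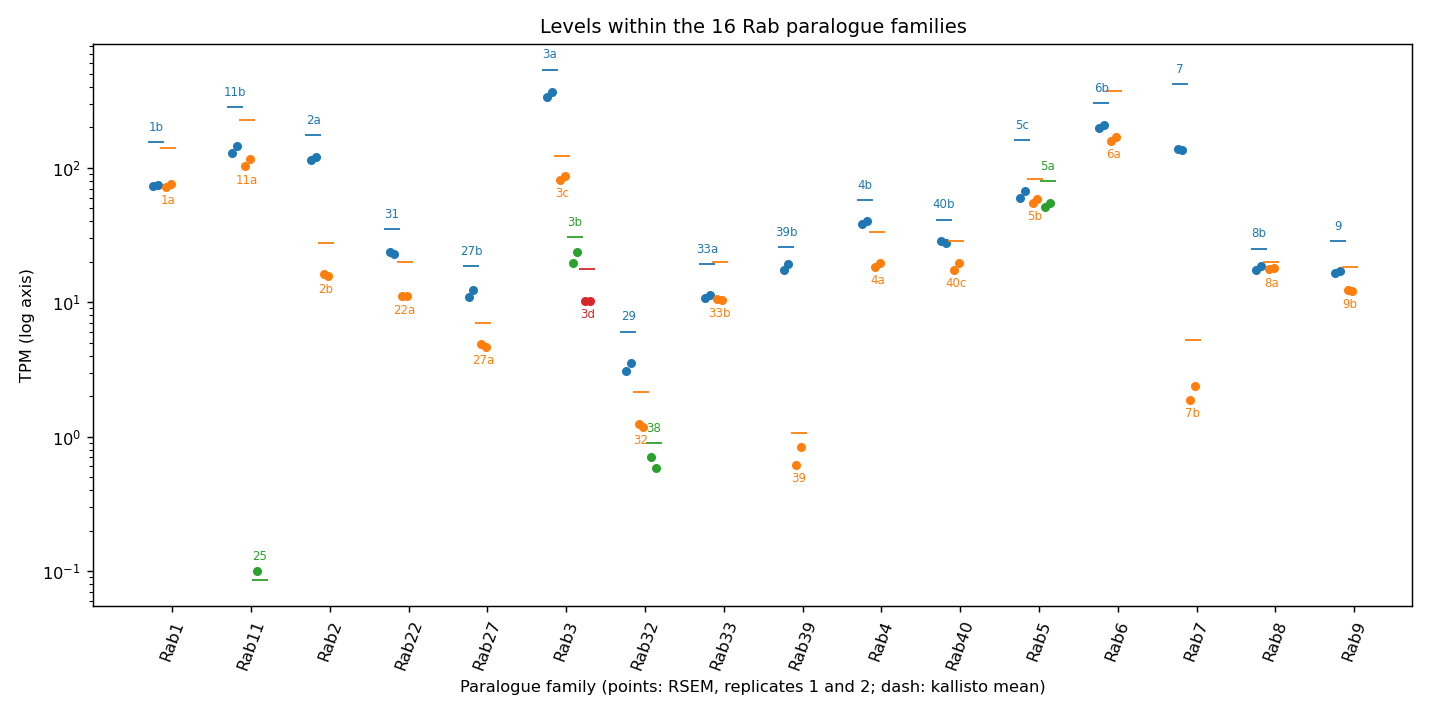
TPM (log axis) of the members of the 16 paralogue families, with points for replicates 1 and 2 of the RSEM gene table and a dash for the kallisto mean; labels give the symbol without Rab, and the 0 of Rab25 in replicate 2 is not drawn. Rab7 lies a mean of 65.4-fold above Rab7b and Rab25 far below Rab11a and Rab11b, while Rab1a and Rab1b lie at the same level.

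The 2 deposited quantifications differed in scale for these genes. Over the 50 Rab genes of at least 1 TPM, kallisto TPM was a median of 1.65 times RSEM TPM, against 1.57 times over 12969 protein-coding genes. The central 90% of ratios ran from 1.40 to 2.48 for the Rab genes and from 1.22 to 2.31 for the protein-coding genes. Rab7 differed most, at 416.7 TPM in kallisto against 137.6 TPM in RSEM, a ratio of 3.03. Rab18 followed with 2.62, Rab5c with 2.51, Rab7b with 2.45 and Rab6a with 2.26. Across these 50 genes the order was still much the same (Spearman's rho 0.985, across genes, in the same libraries). Below Rab3a it changed, with Rab7 (420 and 414 TPM in kallisto) above Rab6a (372 and 368) and Rab6b (299 and 306).

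Transcript tables show which form of each gene was counted. The 59 genes have 256 annotated transcripts, of which 155 are protein-coding and 53 are annotated with a retained intron, and 10 genes have 1 transcript only. Over the 44 genes of at least 10 TPM, 1 transcript held at least 50% of TPM in 35 and at least 90% in 16. The leader was the same in both libraries for 40 of 44. Rab3a-201, the leading Rab3a transcript in RSEM, took 80.1% and 80.5%, and Rab6b-201 took 99.5% and 98.4%. In Rab23, Rab27b and Rab36 the leader by mean share was the same in both tables and stayed under 50% on average. In RSEM it took 27.4% and 43.6% in Rab23, 46.0% and 48.0% in Rab27b, and 46.9% and 49.2% in Rab36. In replicate 1, Rab27b-203 was ahead of that leader, Rab27b-201. The 3 coding transcripts of Rab27b share 1 coding sequence, which took 94.4% and 96.6% of its TPM in RSEM.

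The tables disagreed on the leader for 11 of 44 genes: Rab3a, Rab3d, Rab7, Rab8a, Rab11a, Rab11b, Rab12, Rab18, Rab30, Rab34 and Rab40c. For 8 of them the leading complete coding sequence was still the same. Rab3a is the clearest case. RSEM gave 80.3% to Rab3a-201, while kallisto gave 53.4% to Rab3a-202 and 29.8% to Rab3a-203, but the 4 complete transcripts of Rab3a share 1 coding sequence, which took 99.5% of the TPM in each library. Rab40c likewise was led by Rab40c-209 in RSEM (52.0% and 87.0%) and by Rab40c-207 in kallisto (70.7% and 90.3%), and both carry the same coding sequence. Rab7-205 took 84.8% and 91.3% in RSEM, but kallisto gave 48.8% and 49.1% to Rab7-207, a transcript of 550 bases. The kallisto level of Rab7 given above includes that short transcript. Rab30-203 led in RSEM with 44.4% and 45.4% and Rab30-201 in kallisto with 36.5% and 37.8%. Rab3d-201 took 45.4% and 45.8% in RSEM, and the 545-base Rab3d-204 took 40.5% and 38.5% in kallisto. For Rab34, the leader differed between libraries within RSEM, where Rab34-203 took 51.4% in replicate 1 and 24.1% in replicate 2.

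**Figure D3:**
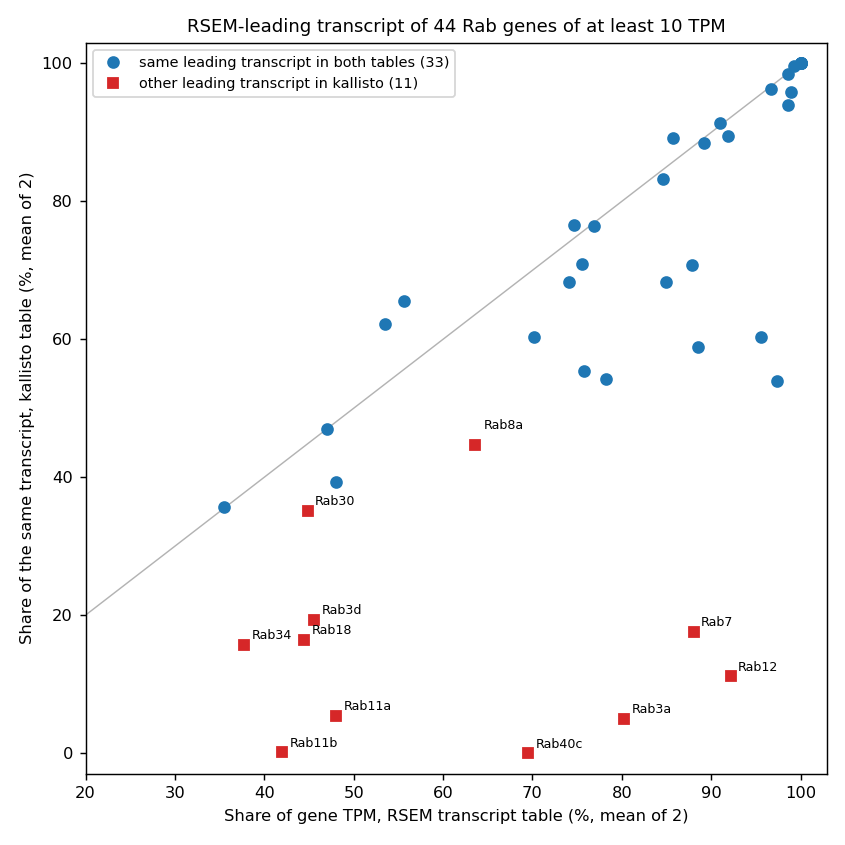
For each of 44 Rab genes of at least 10 TPM, the share of gene TPM taken by its leading RSEM transcript (x axis, %) and the share of the same transcript in kallisto (y axis, %), both as means of 2 libraries; the line marks equal shares. Red squares are the 11 genes with another leader in kallisto, and Rab3a, Rab40c, Rab12 and Rab7 lie far below the line.

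In 3 genes, Rab11a, Rab12 and Rab18, the leading coding sequence itself differed between the tables. RSEM gave 44.4% and 51.7% of Rab11a to the 462-base Rab11a-206, whose annotated coding sequence has no cysteine codon among its last 5, and 41.0% on average to the 2336-base Rab11a-208, which has 2. By expected counts, Rab11a-208 was far ahead, at 1998 and 2574 counts against 344 and 537 for Rab11a-206. Kallisto gave Rab11a-206 only 2.58% and 8.29%. In Rab18, Rab18-201 also lacks a tail cysteine codon and took 46.1% and 42.9% in RSEM, but 16.7% and 16.2% in kallisto. The share of TPM from complete coding sequences without a tail cysteine was over 5% in 7 of 44 genes in RSEM and in 5 of 44 in kallisto. Rab3c-203, Rab21-202 and Rab3d-202 were the others with over 5% in each of the 2 RSEM libraries. Rab21-202 was at 8.35% and 7.92% in RSEM and at 11.99% and 9.20% in kallisto. Like Rab18-201, it was above 5% in both tables and both libraries. The largest such share in kallisto was that of Rab34-209, at 32.8% and 29.2%, but RSEM gave it 0% and 12.4%.

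Some genes had much of their TPM in transcripts that are not annotated as protein-coding. Over the 44 genes, the median share was 3.21%. It was 62.2% and 65.0% in Rab8a, 55.2% and 41.3% in Rab23, 43.1% and 43.9% in Rab11b, 45.5% and 35.0% in Rab26 and 36.6% and 32.3% in Rab36. The leading transcript itself was not protein-coding in 2 genes in RSEM. Rab8a-202, a 542-base transcript with a retained intron, held 10.9 and 11.7 TPM, above the coding Rab8a-201 at 6.64 and 6.30 TPM. In counts the order was opposite, with 615 and 686 counts on Rab8a-201 and 101 and 127 on Rab8a-202. It was also opposite in kallisto TPM, where Rab8a-201 took 52.1% and 58.5% and Rab8a-202 took 44.7% on average. The even TPM of Rab8a and Rab8b given above therefore includes a short non-coding form of Rab8a. In Rab11b, the leading transcript was Rab11b-204, annotated as a target of nonsense-mediated decay, at 53.9 and 61.1 TPM. Kallisto gave Rab11b-204 0.0917% of the gene and instead gave 49.5% to Rab11b-205, a non-coding transcript of 503 bases. In RSEM, complete coding sequences took 39.7% and 33.2% of Rab11b TPM but 86.3% and 92.0% of Rab11a TPM. In kallisto they took 40.7% and 35.3% of Rab11b and 32.1% and 34.8% of Rab11a. In RSEM, the coding forms of Rab11a were therefore above those of Rab11b, the reverse of the order given above. In kallisto, Rab11b led in the coding forms as well. There its gene level was 272 and 290 TPM against 210 and 242 TPM for Rab11a, and its coding share was also higher. The order of the coding forms thus differed between RSEM and kallisto.

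Rab6a has a pair of mutually exclusive exons, of which a transcript carries either one or the other. Both are 106 bases long, lie on chromosome 7 of mm10 on the plus strand in the coding part of the gene, and contain the G3 box. They differ at 30 bases, shown in capitals, and at 3 encoded residues. The downstream exon, chr7:100629838-100629943, belongs to Rab6a-201. The upstream exon, chr7:100629666-100629771, belongs to Rab6a-202 and Rab6a-203.
Downstream exon: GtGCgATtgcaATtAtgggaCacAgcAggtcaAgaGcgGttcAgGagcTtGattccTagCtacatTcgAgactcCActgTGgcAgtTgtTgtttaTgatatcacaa
Upstream exon: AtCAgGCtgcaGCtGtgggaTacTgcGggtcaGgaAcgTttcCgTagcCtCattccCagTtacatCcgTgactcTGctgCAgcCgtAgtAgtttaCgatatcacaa
Transcripts with the downstream exon were at 138 and 152 TPM and those with the upstream exon at 14.96 and 13.46 TPM. The downstream exon thus took 90.2% and 91.9% of the TPM of transcripts that carry either exon in RSEM, and 95.2% and 94.2% in kallisto. Both tables and both libraries placed it far above the upstream exon. The retained-intron transcript Rab6a-204, which is 567 bases long, took 2.78% of Rab6a in RSEM and 37.9% in kallisto, where Rab6a exceeded Rab6b.

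Retained-intron transcripts took a smaller share in replicate 2 in most Rab genes that had any. Of 23 Rab genes of at least 1 TPM with such a share, 19 were lower in replicate 2, where 79.2% of 7396 protein-coding genes were lower. The median share was 11.9% in replicate 1 and 7.41% in replicate 2 for the Rab genes, and 13.0% and 9.36% for the protein-coding genes. Rab23 went from 49.4% to 30.6% and Rab26 from 45.5% to 35.0%. Rab8a (62.2% and 65.0%), Rab27a (20.99% and 25.05%), Rab11a (5.07% and 6.81%) and Rab29 (0% and 7.41%) went the other way. The Rab genes moved with a difference between the libraries that ran through most genes, and its part in the Rab levels was not tested.

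**Figure D4:**
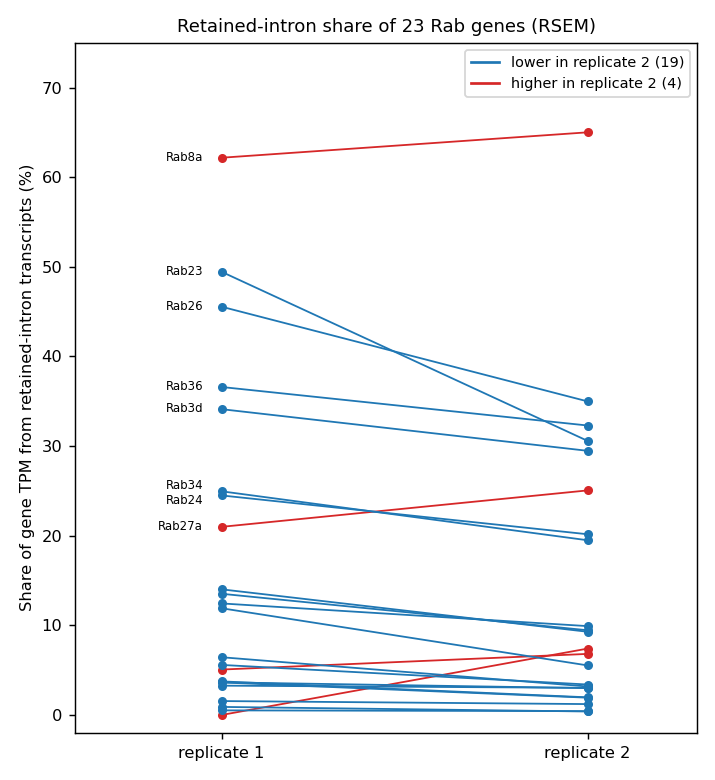
Share of gene TPM from retained-intron transcripts (%, RSEM) in replicate 1 and replicate 2 for 23 Rab genes, 1 line per gene. Blue lines mark the 19 genes with a lower share in replicate 2, and red lines the 4 with a higher share.

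The 2 libraries lay close together for the Rab genes with enough counts. The ratio of replicate 2 to replicate 1 was taken from expected counts scaled by library (TMM factors, which assume that most genes do not differ) for the 46 Rab genes with a mean of at least 100 counts. None of the 46 was over 2-fold apart, while 0.0756% of 11905 protein-coding genes and 0.778% of 12719 annotated genes were. The log2 ratios ran from -0.22 to 0.32. Rab3b had the highest ratio, 0.32, with 575 and 816 counts. Rab26 followed at 0.21, with 762 and 1003 counts, then Rab27b at 0.20, Rab40c at 0.20 and Rab11a at 0.18. Rab36 had the lowest ratio, -0.22, with 811 and 796 counts, followed by Rab34 at -0.14, Rab27a at -0.09, Rab30 at -0.08 and Rab31 at -0.02. The direction was not kept for Rab34, which was higher in replicate 2 by TPM (0.15), or for Rab31, at 0.020 with kallisto counts. Of the 46, 38 had a higher scaled count in replicate 2, where 62.2% of 11905 protein-coding genes did. The median log2 ratio was 0.11 for the Rab genes and 0.04 for the protein-coding genes. Scaled by spike-in totals, the median Rab ratio was -0.09, so the sign of the Rab ratio between libraries depends on the scaling. Such scaling moves all genes by nearly the same amount, so it hardly changes the distance between the Rab and protein-coding medians.

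**Figure D5:**
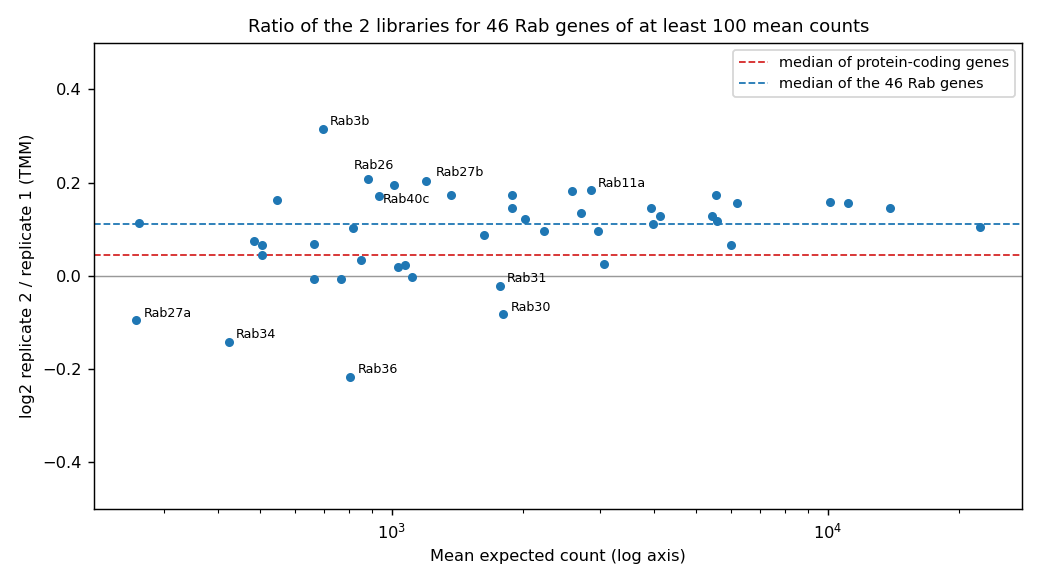
log2 ratio of replicate 2 over replicate 1 (TMM-scaled expected counts) against mean expected count (log axis) for 46 Rab genes, 1 point each; the 5 highest and 5 lowest are named. All points lie between -0.22 and 0.32, and the blue line of the Rab median (0.11) lies above the red line of the protein-coding median (0.04).

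The proteins that act on Rabs were described from 9 lists, and the role that a list gives a gene was not tested. The lists held 148 measured genes. Of these, 134 were at 1 TPM or more, 105 at 10 TPM or more and 14 under 1 TPM, beside 58.9% and 36.8% of protein-coding genes at the first 2 levels. None of the 131 with at least 100 mean counts was over 2-fold apart between the libraries, beside 0.0756% of protein-coding genes. Among 7 genes for prenylation and membrane extraction, all reached 1 TPM. Gdi2, a GDP dissociation inhibitor, was at 118 and 128 TPM and Rabac1 at 115 and 130 TPM. The lipid-transfer enzyme itself was lower, with Rabggtb at 31.0 and 30.8 TPM and Rabggta at 19.2 and 18.3 TPM.

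Of 40 genes listed as exchange factors, 37 reached 1 TPM and 30 reached 10 TPM. They include Rab3gap1 (28.1 and 29.2 TPM) and Rab3gap2 (27.8 and 27.0 TPM), named for GTPase-activating activity on Rab3. These genes are not counted among the GTPase-activating proteins below. Sbf1 led at 155 and 144 TPM, Madd, the exchange factor of Rab3 and Rab27, was at 100.2 and 87.4 TPM, and Dennd5a, which acts on Rab39, at 91.3 and 88.4 TPM. Dennd1c, Dennd2c and Dennd2d were under 1 TPM. Of 36 GTPase-activating proteins, 35 reached 1 TPM and 26 reached 10 TPM. Rabgap1l led at 102 and 99.87 TPM, with Tbc1d9b at 44.03 and 46.9 TPM and Tbc1d10b at 42.6 and 47.0 TPM, and only Tbc1d10c was under 1 TPM. Both regulator classes were thus spread over many genes, most of them above 10 TPM.

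Genes listed as effectors of Rab3 and Rab27 covered a wide range. The active zone scaffold Rims1 was at 114 and 116 TPM, the vesicle protein Rph3a at 99.1 and 97.8 TPM and Rims2 at 40.1 and 36.7 TPM. By contrast, 5 of the 15 genes were under 1 TPM, namely Unc13d, Sytl1, Sytl3, Sytl4 and the melanosome adaptor Mlph. All 4 listed Rims genes reached 10 TPM, while Sytl2 was the only one of 5 Sytl genes to do so. Whether each listed gene binds a Rab was not tested.

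Rab11 effectors included the motors Myo5b, at 135 and 124 TPM, and Myo5a, at 87.8 and 86.5 TPM. By expected counts the order was opposite, with 14498 and 17350 for Myo5a against 4693 and 5163 for Myo5b. The order by TPM thus holds per length only. Rab11fip4 was at 70.2 and 76.1 TPM. Rab11fip1 and Sh3tc2 were under 1 TPM and the other 8 of 10 were above 10 TPM. The 11 effectors of Rab5 and Rab4 were all above 1 TPM, led by Rufy3 at 67.2 and 70.1 TPM, Rabep1 at 48.2 and 48.7 TPM and Gripap1 at 49.5 and 40.1 TPM. Eea1, the tether of early endosomes, was at 14.2 and 13.9 TPM.

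Of 7 Rab7 effectors, Osbpl1a was at 53.6 and 60.4 TPM, the retromer subunit Vps35 at 54.2 and 57.5 TPM and Rubcn at 23.1 and 21.6 TPM, while Rilp, the dynein adaptor, was at 1.33 and 0.65 TPM. Among 8 Rab6 effectors, Bicdl1 was at 49.9 and 54.1 TPM, Gcc2 at 32.0 and 36.7 TPM and Erc1 at 27.5 and 26.6 TPM. Kif20a, a kinesin of dividing cells, was at 0.46 and 0.35 TPM and Bicdl2 was listed at 0 in both libraries. Mical2 was the highest of 14 genes listed as effectors of Rab8 and Rab10 and Rab kinases, at 305 and 295 TPM, with Mical3 at 37.5 and 29.9 TPM and the Rab phosphatase Ppm1h at 33.3 and 32.3 TPM. The Rab kinase Lrrk2 was at 7.68 and 7.23 TPM and Lrrk1 at 1.25 and 1.01 TPM.

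Exons shared with other genes may bear on some levels, which was not tested. Of the 59 genes, 20 share exonic bases with another annotated gene, 15 on the opposite strand and 6 on the same strand. Besides Rab43 and Rab24, Rab6a shares 708 of 3728 bases with Mrpl48 on the opposite strand, which was at 27.2 and 28.7 TPM. Rab26 shares 267 of 2852 bases with Traf7 on the same strand, which was at 37.9 and 32.8 TPM. Rab4b shares 1280 of 1970 bases with Gm21983, which was listed at 0.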

How the data were processed

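Total RNA-seq of 2 hippocampus libraries was used as deposited. Per the labels and the deposited text notes, tables refer to mm10 and GENCODE M21. Per the file headers, the authors made RSEM gene and transcript tables and a kallisto transcript table. The authors calculated the expected count (RSEM) or estimated count (kallisto) of each feature, per the file headers. The authors normalized these to TPM over all rows, spike-ins included, per the file headers. The authors also calculated a posterior SD of each count with RSEM, used here as a score of count uncertainty, per the file headers. Per the deposited notes, RSEM values came from an alignment to the transcriptome and kallisto values directly from reads. No aligner, strand setting or program version is given in the sources used here. TPM divides by effective length, so a short transcript gains TPM relative to its counts.

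Levels are means ± SD of TPM. Expected counts on annotated genes (30635891 and 35713471 per library; spike-ins left out) were rounded, scaled by TMM in edgeR 4.0.16 (R 4.3.3) and compared as log2 ratios with a prior count of 0.5, a step tested on simulated data. The median level over all Rab genes was also taken as log2(TPM + 0.1). Coding sequences came from the GENCODE M21 transcripts, with the principal form of each gene as tagged there, and promoter windows from RefSeq (GRCm38.p6). Paralogues were aligned globally with Biopython 1.88. Tables and plots were made in Python 3.11.15 (pandas 2.3.3, matplotlib 3.10.9, numpy 2.4.6, scipy 1.17.1). With 1 group, no test was made. The alternatives were other TPM and count minimums, pseudocounts and prior counts, DESeq2 1.42.0 size factors, spike-in totals, kallisto, TPM over nuclear genes, counts in place of TPM and each library left out.

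Members and lists were chosen with earlier results of these data known. The rule for named genes took the 10 highest members, the Rab3 and Rab27 families, all paralogues, all members under 1 TPM, the 5 highest and 5 lowest replicate ratios, genes with a leading transcript under 50%, not protein-coding or different between tables, the 5 largest non-coding shares, and the 3 highest and all genes under 1 TPM of each list. Other genes named, such as Eea1, Lrrk2 and those with overlapping exons, were chosen after their values were seen. Some genes the rule takes are not reported here.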

Additional observations from a re-analysis of the deposited data

How the results depend on the processing

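With 2 libraries of 1 group, spread rests on a single difference, and genes with few counts (Rab17, Rab19, Rab25, Rab44) are limited by depth. No paired analysis was possible because there is 1 group. The count of Rab genes of at least 1 TPM was 50 and ranged from 45 (minimum 5 TPM) to 54 (minimum 0.5 TPM), with 53 in kallisto. Leaving out either library kept that count at 50, gave 2496.7 to 2641.3 for the total TPM, and gave 35 to 36 genes with a leading transcript of at least 50%. Grouped by identical coding sequence, an alternative chosen after seeing the data, that number was 40. A lower retained-intron share in replicate 2 was seen in 22 of 23 genes with kallisto, where 76.6% of 7259 protein-coding genes were lower, also added after seeing the data.

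Larger shifts came with other units and tables, and the cause was not tested. The summed Rab TPM of 2569 was 4681 in kallisto, 2916 over nuclear genes only and 4304 when expected counts were scaled to the same total without division by length. The median log2(TPM + 0.1) of 4.20 was 4.56 over genes of at least 1 TPM, by construction, and 4.85 in kallisto. The median share not protein-coding was 4.47% in kallisto and 1.44% by counts. By counts, the gene leading by TPM exceeded the next by over 2-fold in 5 families, and in the Rab9 and Rab33 families the other gene led by over 2-fold. The ratio of Rab3a to Rab3c was then 0.729, of Rab33a to Rab33b 0.396, of Rab5c to Rab5b 0.658 and of Rab9 to Rab9b 0.469. In kallisto, the ratio of Rab33a to Rab33b was 0.956 and of Rab6b to Rab6a 0.818.

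The median log2 replicate ratio of 0.11 was -0.094 with spike-in totals, 0.16 with kallisto counts and 0.074 with TPM. Spike-in scaling also turned Rab27b to -0.0030, Rab40c to -0.011 and Rab11a to -0.022. Rab34 was at 0.15 with TPM and Rab31 at 0.020 with kallisto counts. Without a count minimum, 2 genes were over 2-fold apart, Rab20 (3 and 9 counts) and Rab25 (2 and 0 counts). Counts of genes or families under the remaining alternatives were within 1.5 times of those in the report.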

Other observations

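Genes named after a Rab gene but outside the family rule showed reads near or above the level of several Rab genes. Rab10os, an antisense gene that shares 143 exonic bases with Rab10, was at 15.98 TPM in replicate 1 and 14.01 TPM in replicate 2. Rab26os, antisense to Rab26, was at 12.15 and 8.65 TPM on only 54 and 45 expected counts, while Rab26 had 762 and 1003. Both were lower in replicate 2 by TPM, where Rab10 and Rab26 were higher.

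Processed pseudogenes of the family had few or no reads. Rab5a-ps and Rab9b-ps1 had 0 counts in both libraries and Rab7-ps1 had 5.5 and 9.36 expected counts. Rab11b-ps2 was the exception, at 5.53 and 1.65 TPM on 63.9 and 22.4 expected counts. Its parent gene Rab11b had 3674 and 4579, so the counts of Rab11b-ps2 were small beside those of the gene from which it derives.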
